A study of Mus musculus with 6 samples.

Results

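The 42 genes described here encode the machinery that copies chromosomal DNA, together with the enzymes, cyclins and transcription factors that serve it. They were taken by symbol from a list of replication genes, and all 42 were found among the 23224 genes of the expression table and had enough reads to be tested. The cells were alveolar organoid cells from mouse lung with the genotype Sftpc-eGFP, in which a fluorescent reporter marks expression of the surfactant protein C gene of alveolar type 2 (AT2) cells. In 2D FBS the cells were grown flat in medium with 10% fetal bovine serum. In 2D FNHCS they were grown flat in the medium called FNHCS. In 3D FNHCS, the control condition, they stayed in drops of 90% matrigel with FNHCS medium. Treatment lasted 7 days, and each of the 2 cell lines, SN3595 and SN3593, gave 1 polyA RNA-seq library to each of the 3 conditions. Loss of FNHCS and gain of serum come together in 2D FBS, so the effects of the 2 changes cannot be told apart. The labels tell the 2 lines apart by name only and do not say whether they come from different animals. The p-values therefore reflect variation among these cultures, which can be partly technical.

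A chromosome is copied only where a pre-replication complex has been assembled. The origin recognition complex, Cdc6 and Cdt1 place the ring-shaped helicase made of Mcm2 to Mcm7 on DNA before S phase, and geminin (Gmnn) blocks Cdt1 afterwards so that no stretch is copied again. Origins then fire when kinases, the GINS complex and Mcm10 turn the helicase on, after which primase and the polymerases, the sliding clamp PCNA and its loader, and the single-strand binding protein RPA extend the new strands. Many of these genes are transcribed by E2F factors once cyclin-dependent kinases inactivate the retinoblastoma protein, and AT2 cells, which are mostly at rest in the adult lung, use them when they divide.

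The libraries held between 33634368 and 43334665 expected counts. Markers of AT2 cells summed to between 373 and 549 CPM in 2D FBS, between 43427 and 53561 CPM in 2D FNHCS and between 46572 and 63246 CPM in 3D FNHCS. Most of the sum was Sftpc, which had 264 and 438 CPM in 2D FBS, 40987 and 51435 CPM in 2D FNHCS, and 41014 and 33502 CPM in 3D FNHCS. The other 7 AT2 markers were lower in both 2D FNHCS than in both 3D FNHCS libraries, as for Sftpa1, which had 3.14 and 4.42 CPM in 2D FBS, 1337 and 949.8 CPM in 2D FNHCS, and 14094 and 8126 CPM in 3D FNHCS, and Lamp3, which had 0.557 and 0.977 CPM in 2D FBS, 261 and 226 CPM in 2D FNHCS, and 1949 and 1249 CPM in 3D FNHCS. Summed markers of the flat alveolar type 1 (AT1) cells ran the other way, between 11945 and 16600 CPM in 2D FBS, 3849 and 10112 CPM in 2D FNHCS, and 1828 and 2376 CPM in 3D FNHCS. Most of the sum in 2D FBS was Ager, at 10115 and 7535 CPM. Ager, Pdpn, Rtkn2 and Clic5 followed this order in both lines, and the others did not. In SN3593, 2D FNHCS was below 3D FNHCS for Hopx (208 and 475 CPM), Aqp5 (918 and 1215 CPM) and Cav1 (1.27 and 2.68 CPM). In SN3595, 2D FNHCS was above 2D FBS for Aqp5 (1910 and 1816 CPM) and Akap5 (883 and 756 CPM). In the titles, type I is written for 2D FBS, both AT2 and AT1 for 2D FNHCS, and type II for 3D FNHCS. The AT1 sum was highest in 2D FBS, where most replication genes were lowest, and its part in the results was not tested. All 5 general epithelial markers were detected in every condition. Summed markers of fibroblasts stayed at or below 1.52 CPM and those of endothelial cells at or below 0.570 CPM in every library. The leukocyte list summed to between 7.76 and 17.6 CPM in 2D FBS, 65.7 and 129 CPM in 2D FNHCS, and 121 and 1586 CPM in 3D FNHCS, mostly from Lyz2, which AT2 cells also express, while Ptprc, the pan-leukocyte marker, was at most 0.828 CPM. The mesothelial list reached 552 to 2142 CPM in 2D FBS, nearly all of it Msln, against 6.96 to 307 CPM in 2D FNHCS and 4.90 to 12.2 CPM in 3D FNHCS, while Wt1 was at most 0.201 CPM. The part of these marker differences in the replication results was not tested. The sources used here do not state whether eGFP sorting preceded RNA extraction. In RNA from whole cultures, fewer replicating cells and less RNA per replicating cell cannot be told apart.

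Most replication genes had their lowest level in 2D FBS and their highest in 3D FNHCS. The mean of the 2 libraries was lowest in 2D FBS for 35 of the 42 members and highest in 3D FNHCS for 31, and 29 followed the full order with 2D FNHCS between. Those highest in 2D FBS were Ccne1, E2f1, Pole and Rrm1, and those highest in 2D FNHCS were Mcm2, Mcm7, Gins4, E2f2, Fen1, Rpa1 and Tyms, differences between means that were not all called. Levels are CPM, library-scaled read numbers from edgeR that are not corrected for gene length, and they are compared between conditions only. Pairs of values are for SN3595 and then SN3593. Standard errors (SE) follow the sign ± after log2 fold changes. A gene was called when its adjusted p in edgeR's quasi-likelihood test was below 0.05. In 2D FBS against 3D FNHCS, 28 of 42 members (66.7%) fell and 2 rose, beside 20.5% of all tested genes that fell and 19.9% that rose, 40.5% in all. The members' median log2 fold change was -1.28, beside -0.03 over all tested genes, and it was -1.21 within SN3595 and -1.02 within SN3593. Both libraries of 2D FBS lay below both libraries of 3D FNHCS for 35 of 42 members, beside 38.7% of all tested genes. The 12 members that were not called were Mcm2, Gins2, Gins3, Gins4, Ccne1, Ccne2, E2f1, E2f2, Prim2, Pole, Fen1 and Tyms.

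**Figure D1:**
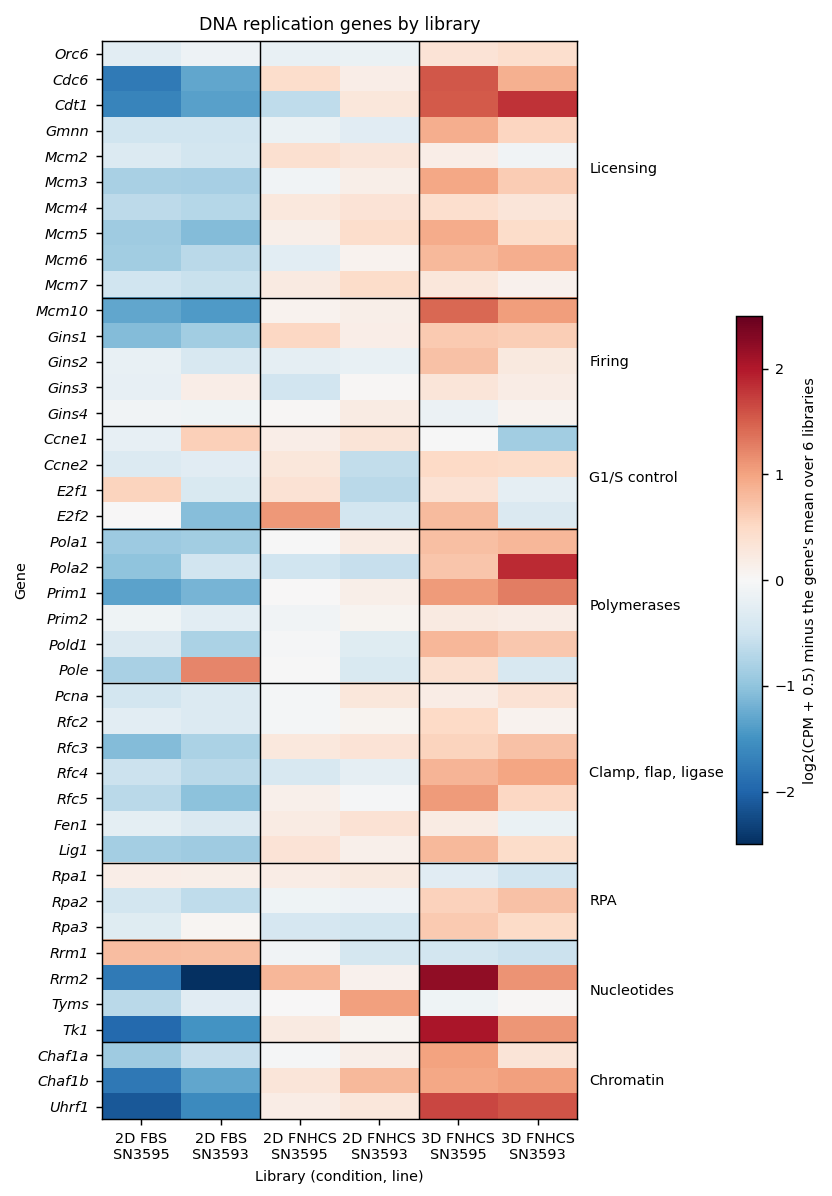
Level of each of the 42 members in each of the 6 libraries, as log2(CPM + 0.5) relative to the gene's mean over the libraries, with conditions ordered 2D FBS, 2D FNHCS and 3D FNHCS and genes grouped by role. Most genes are lowest in the 2D FBS libraries and highest in the 3D FNHCS libraries, with Rrm1 and Rpa1 among the exceptions.

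The fall in 2D FBS against 2D FNHCS covered fewer members. There, 14 of 42 members (33.3%) fell and 1 rose, beside 4.77% and 5.85% of all tested genes, 10.6% in all, with a median log2 fold change of -0.73 for the members and -0.06 for all tested genes. Both 2D FBS libraries lay below both 2D FNHCS libraries for 31 of 42 members, beside 31.0% of all tested genes. In 2D FNHCS against 3D FNHCS, 11 of 42 members (26.2%) fell and 1 rose, beside 9.77% and 8.63% of all tested genes, 18.4% in all, with medians of -0.56 for the members and 0.03 for all tested genes. Both 2D FNHCS libraries lay below both 3D FNHCS libraries for 29 of 42 members, beside 32.9% of all tested genes. These comparisons share libraries with each other and with 2D FBS against 3D FNHCS, so their lists are not independent of one another. Prim1 and Uhrf1 fell in all 3 comparisons, and no other member did with all libraries and no block. Because each line was grown in every condition, edgeR was also run with the line as a block. It then called 33 members in 2D FBS against 3D FNHCS, beside 49.3% of all tested genes, 22 in 2D FBS against 2D FNHCS, beside 18.7%, and 16 in 2D FNHCS against 3D FNHCS, beside 29.0%. Cdt1, Mcm3, Mcm6, Mcm10, Rfc5 and Rrm2 then fell in all 3 comparisons as well.

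The calls between neighbouring conditions depended on single libraries, and so did the counts over all tested genes. The count of called members in 2D FBS against 2D FNHCS, 15 with all libraries, was 1 without the SN3595 and 0 without the SN3593 library of 2D FBS, 11 and 3 without those of 2D FNHCS, and 9 and 7 without those of 3D FNHCS. Over all tested genes the count in the same fits was 1531 with all libraries, 387 and 62 without those of 2D FBS, 1292 and 482 without those of 2D FNHCS, and 844 and 868 without those of 3D FNHCS. The count of 12 in 2D FNHCS against 3D FNHCS became 0 without the SN3595 and 3 without the SN3593 library of 2D FNHCS, and 1 and 0 without those of 3D FNHCS. It was 8 without either library of 2D FBS. Over all tested genes it was 2652 with all libraries, 1283 and 1869 without those of 2D FNHCS, 802 and 565 without those of 3D FNHCS, and 1810 and 1806 without those of 2D FBS. Every called member of these comparisons missed the threshold under at least 1 of 13 alternatives, where the highest adjusted p was between 0.0533 and 0.195 for 2D FBS against 2D FNHCS and between 0.0809 and 0.214 for 2D FNHCS against 3D FNHCS. Of the 30 called members of 2D FBS against 3D FNHCS, 21 passed under all 13. Of the other 9, Pola2 missed the threshold only without the SN3595 library of 2D FBS (adjusted p = 0.0573), and Chaf1a without the SN3595 library of 2D FBS (adjusted p = 0.0748) or of 3D FNHCS (adjusted p = 0.0651). Gmnn missed it without either library of 2D FBS (adjusted p = 0.0608 without SN3595 and 0.0571 without SN3593) or the SN3595 library of 3D FNHCS (adjusted p = 0.0660). Mcm7 and Pcna missed it when any one of the 4 libraries compared was left out, with adjusted p-values up to 0.0911 and 0.126. Orc6, Rpa1 and Rpa3 missed it when any one of the 6 libraries was left out, with adjusted p-values up to 0.168, 0.182 and 0.187. Rfc2 missed it when any one was left out except the SN3593 library of 3D FNHCS, up to 0.235, and also with RLE factors, DESeq2 and limma-voom. Without the low-count filter Orc6, Rfc2, Rpa1 and Rpa3 missed it, and with library-size or upper-quartile scaling Rpa1 did. No called member changed sign under any alternative.

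**Figure D2:**
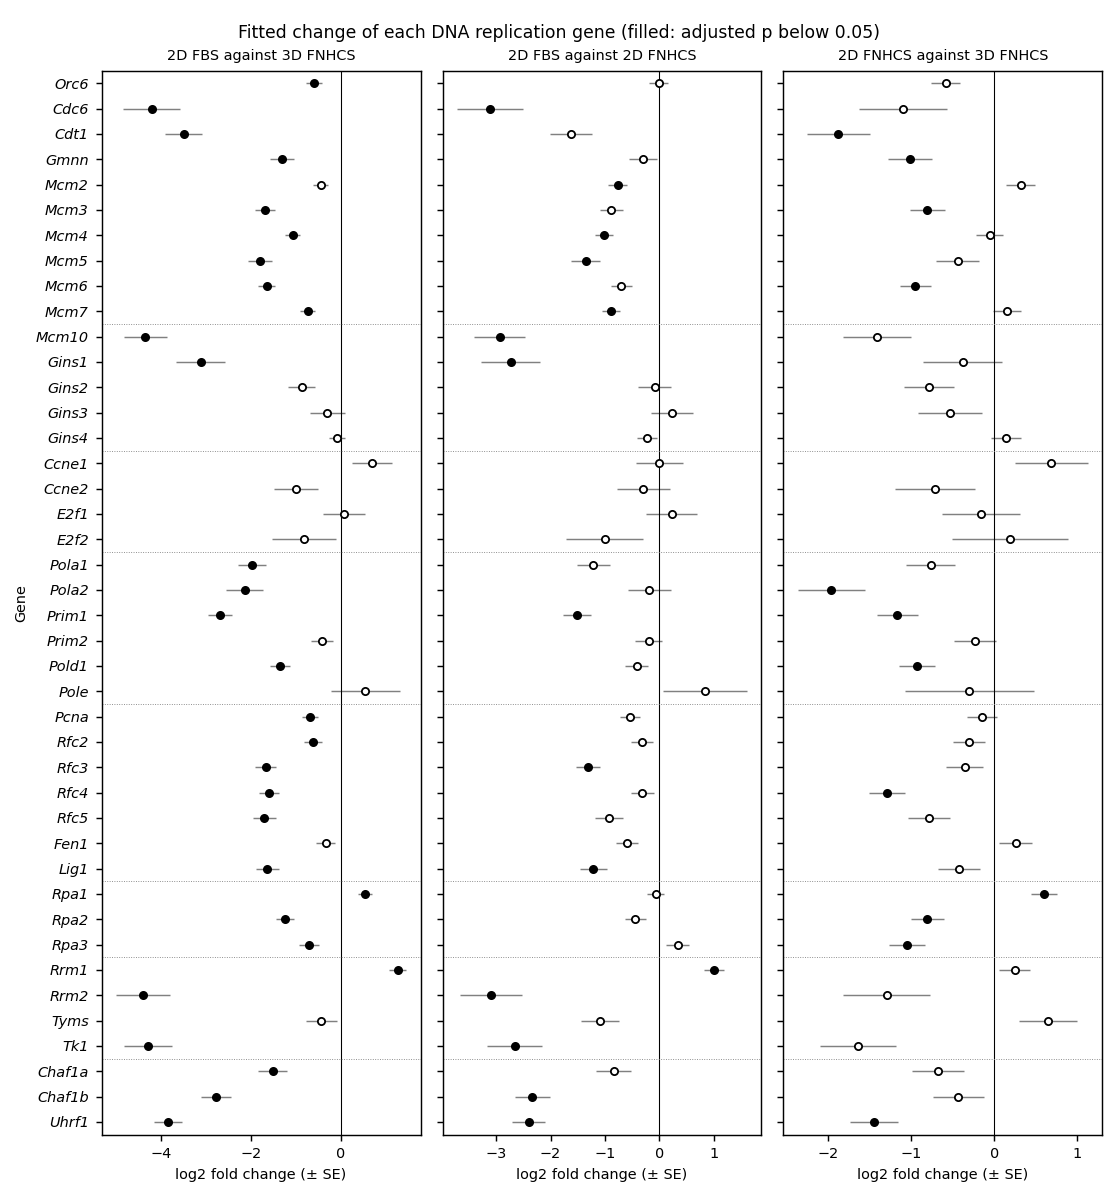
Log2 fold change with its SE for each member in the 3 comparisons, with filled points for members called by edgeR at an adjusted p below 0.05. The points for 2D FBS against 3D FNHCS reach from -4.39 for Rrm2 to 1.26 for Rrm1.

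The sequence around the annotated start of these genes often held letters of the kind that E2F factors bind. Matches after the start were counted too, and for some members, such as Cdt1 and Mcm3, all matches lay there. Promoter windows of 300 bases, from 250 before to 50 after the annotated start, were available from RefSeq (GRCm38.p6) for 33 of the 42 members. The E2F-type motifs searched were TTCGCGC, its variant TTGGCGC, its variant TTCCCGC and its variant TTGCCGC on either strand, and matches may overlap each other. Some genes have more than 1 window, and the 33 members have 39. Shares are therefore of genes with a match in any of their windows. At least 1 match was present for 66.7% of the members with a window, beside 18.7% of such tested genes and 10.9% of all such genes. The share was 60% in further licensing and firing genes, 47.1% in further elongation genes, 45.5% in further chromatin genes and 33.3% in further nucleotide enzymes. It was 39.1% in a list of E2F and retinoblastoma family genes, cyclins, cyclin-dependent kinases and other cell cycle regulators, and 14.8% in mitosis genes. Among members with a window, 18 of the 24 that fell in 2D FBS against 3D FNHCS (75%) had one, and 4 of the 9 others (44.4%). CG dinucleotides, which the motifs contain, were counted for each gene in its window with the most of them. The median was 26 for the members that fell, 18 for the others, 25 for the members together, 21 for tested genes and 8 for all genes. The cell cycle homology region is a motif of mitotic genes, spelled here TTTGAA or TTCGAA on either strand. It was present for 18.2% of the members and 74.1% of 27 mitosis genes, beside 16.8% of tested genes. CCAAT boxes on either strand were present for 60.6% of the members, 70.4% of mitosis genes and 43.2% of tested genes. A match is a description of letters and not a mapped binding site.

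Windows of a few members that moved differently are printed as examples. Whether the letters go with the direction of change was not tested. The 250 bases before the start are printed in the direction of the gene, in lower case with E2F-type matches in capitals. Mcm6, a helicase subunit that fell in 2D FBS against 3D FNHCS, lies on the minus strand (chr1:128359706-128359955) and has the run TTGGCGC joined to the reverse complement of TTCGCGC at each of 2 places, so that these matches overlap. A further match lies past the start. Mcm10, which also fell, lies on the minus strand (chr2:5012792-5013041) and has no match. Rrm2 (chr12:24708004-24708253) and Rrm1 (chr7:102441445-102441694), subunits of the same enzyme that moved in opposite directions, lie on the plus strand with 1 match each. Rpa1, which rose, lies on the minus strand (chr11:75348384-75348633) and has none.
Mcm6: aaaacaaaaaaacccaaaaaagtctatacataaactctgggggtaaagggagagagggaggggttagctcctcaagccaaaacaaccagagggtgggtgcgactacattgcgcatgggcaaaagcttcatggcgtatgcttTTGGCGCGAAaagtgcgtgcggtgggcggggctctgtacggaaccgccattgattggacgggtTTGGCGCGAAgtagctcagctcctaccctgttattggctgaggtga
Mcm10: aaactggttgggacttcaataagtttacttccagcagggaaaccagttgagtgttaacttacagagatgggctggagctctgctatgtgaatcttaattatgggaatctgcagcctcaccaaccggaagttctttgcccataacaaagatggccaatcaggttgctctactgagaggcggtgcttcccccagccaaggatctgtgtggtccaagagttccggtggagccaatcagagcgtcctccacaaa
Rrm2: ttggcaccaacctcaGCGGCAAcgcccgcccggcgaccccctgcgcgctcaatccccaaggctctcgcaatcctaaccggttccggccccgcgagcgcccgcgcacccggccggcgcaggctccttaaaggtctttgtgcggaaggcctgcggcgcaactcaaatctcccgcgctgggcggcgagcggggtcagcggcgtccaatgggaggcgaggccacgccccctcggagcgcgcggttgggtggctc
Rrm1: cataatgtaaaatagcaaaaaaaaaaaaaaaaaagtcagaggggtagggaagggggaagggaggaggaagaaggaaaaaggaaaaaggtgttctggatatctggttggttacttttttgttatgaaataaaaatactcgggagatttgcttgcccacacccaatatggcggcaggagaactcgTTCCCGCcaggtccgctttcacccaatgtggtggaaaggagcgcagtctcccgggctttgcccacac
Rpa1: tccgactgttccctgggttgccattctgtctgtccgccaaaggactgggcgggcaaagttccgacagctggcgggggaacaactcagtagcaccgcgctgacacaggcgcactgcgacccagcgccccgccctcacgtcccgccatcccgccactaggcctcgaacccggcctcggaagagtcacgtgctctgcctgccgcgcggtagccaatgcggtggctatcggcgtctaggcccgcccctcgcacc

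**Figure D3:**
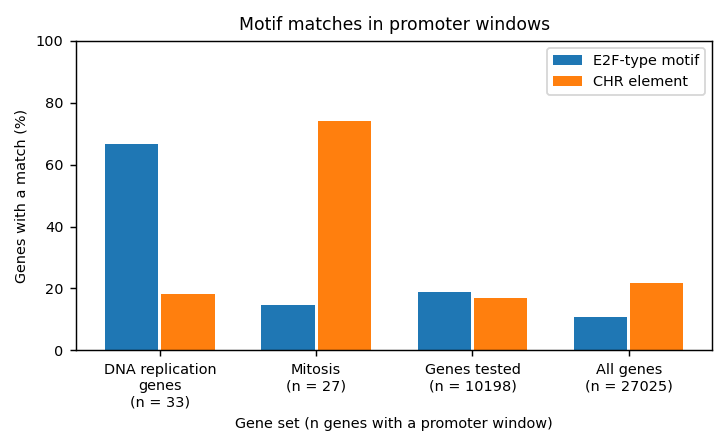
Percent of genes with an E2F-type motif or a cell cycle homology region (CHR) in any of their promoter windows. Shown are the members, mitosis genes, tested genes and all genes, each counted where a window was available. The E2F-type share is 66.7% in the members and 14.8% in mitosis genes, and the CHR share is 18.2% in the members and 74.1% in mitosis genes.

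Of the 10 licensing genes, 9 fell in 2D FBS against 3D FNHCS, with a median log2 fold change of -1.48. Cdc6, the ATPase that joins the origin recognition complex to recruit the helicase, had 0.127 and 0.374 CPM in 2D FBS, 2.42 and 1.92 CPM in 2D FNHCS, and 5.76 and 3.48 CPM in 3D FNHCS. It was nearly absent from 2D FBS, where it rested on 5 and 13 expected counts, and the libraries of the 3 conditions did not overlap. Its log2 fold change in 2D FBS was -4.21 ± 0.625 (adjusted p = 0.00408) against 3D FNHCS and -3.12 ± 0.608 (adjusted p = 0.0310) against 2D FNHCS. Between 2D FNHCS and 3D FNHCS it was -1.09 ± 0.529 (adjusted p = 0.194), which did not pass.

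Cdt1, which brings the helicase to origins together with Cdc6, had 1.57 and 2.01 CPM in 2D FBS, 3.68 and 7.33 CPM in 2D FNHCS, and 18.3 and 22.1 CPM in 3D FNHCS. Each condition lay apart from the next in both lines. The log2 fold change was -3.50 ± 0.409 (adjusted p = 0.00218) in 2D FBS against 3D FNHCS and -1.88 ± 0.379 (adjusted p = 0.0234) in 2D FNHCS against 3D FNHCS. Between the flat cultures it was -1.62 ± 0.387 (adjusted p = 0.0503), and with the line as a block the adjusted p was 0.0221. Its inhibitor Gmnn had 4.30 and 4.31 CPM in 2D FBS, 5.56 and 5.02 CPM in 2D FNHCS, and 12.1 and 9.24 CPM in 3D FNHCS. Gmnn fell in 2D FBS by 1.31 on the log2 scale (adjusted p = 0.0109) and in 2D FNHCS by 1.01 (adjusted p = 0.0454), both against 3D FNHCS, so that the inhibitor and its target were lower in the same cultures. Orc6, a subunit of the origin recognition complex, had 13.8 and 15.4 CPM in 2D FBS, 14.6 and 14.8 CPM in 2D FNHCS, and 21.4 and 22.7 CPM in 3D FNHCS. The flat cultures overlapped each other for Orc6 and lay below 3D FNHCS, with log2 fold changes of -0.60 ± 0.178 (adjusted p = 0.0389) for 2D FBS and -0.58 ± 0.177 (adjusted p = 0.0680) for 2D FNHCS, where the adjusted p with the line as a block was 0.0408.

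The 6 helicase subunits act as a single ring, yet their levels followed different orders over the conditions. All 6 were lower in both libraries of 2D FBS than in every other library. Mcm3 had 8.05 and 7.90 CPM in 2D FBS, 13.5 and 15.97 CPM in 2D FNHCS, and 28.8 and 22.7 CPM in 3D FNHCS. Mcm5 had 5.34 and 4.63 CPM in 2D FBS, 11.5 and 14.1 CPM in 2D FNHCS, and 20.2 and 14.4 CPM in 3D FNHCS. Mcm6 had 17.7 and 20.4 CPM in 2D FBS, 27.2 and 34.6 CPM in 2D FNHCS, and 57.8 and 61.5 CPM in 3D FNHCS. These 3 subunits were highest in 3D FNHCS, with 2D FNHCS between. Mcm2 had 22.2 and 20.4 CPM in 2D FBS, 37.6 and 34.95 CPM in 2D FNHCS, and 31.8 and 26.4 CPM in 3D FNHCS. Mcm4 had 12.1 and 11.6 CPM in 2D FBS, 23.3 and 24.7 CPM in 2D FNHCS, and 26.01 and 23.9 CPM in 3D FNHCS. Mcm7 had 21.98 and 21.1 CPM in 2D FBS, 36.8 and 43.1 CPM in 2D FNHCS, and 38.1 and 33.6 CPM in 3D FNHCS. For Mcm4 and Mcm7 the libraries of 2D FNHCS overlapped those of 3D FNHCS, and for Mcm2 those of 2D FNHCS were the higher.

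Against 3D FNHCS, 5 of the 6 subunits fell in 2D FBS in edgeR's test. The log2 fold changes were -1.79 ± 0.268 (adjusted p = 0.00416) for Mcm5, -1.69 ± 0.217 (adjusted p = 0.00271) for Mcm3 and -1.65 ± 0.189 (adjusted p = 0.00209) for Mcm6. They were smaller for Mcm4, at -1.07 ± 0.169 (adjusted p = 0.00494), and for Mcm7, at -0.73 ± 0.168 (adjusted p = 0.0165). Mcm2 did not pass, at -0.45 ± 0.172 (adjusted p = 0.0812), though its adjusted p was 0.0401 with the line as a block.

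Between the flat cultures, 2D FBS against 2D FNHCS, the log2 fold changes of the ring lay between -1.36 and -0.70. They were -1.36 ± 0.265 (adjusted p = 0.0311) for Mcm5, -1.02 ± 0.169 (adjusted p = 0.0220) for Mcm4, -0.89 ± 0.168 (adjusted p = 0.0288) for Mcm7 and -0.77 ± 0.173 (adjusted p = 0.0429) for Mcm2, and these 4 fell. Mcm3 was at -0.88 ± 0.213 (adjusted p = 0.0509) and Mcm6 at -0.70 ± 0.186 (adjusted p = 0.0657), and with the line as a block their adjusted p-values were 0.0394 and 0.0288. For 2D FNHCS against 3D FNHCS only Mcm6, at -0.95 ± 0.186 (adjusted p = 0.0216), and Mcm3, at -0.80 ± 0.211 (adjusted p = 0.0470), passed. Mcm5 was at -0.44 ± 0.259 (adjusted p = 0.276), Mcm4 at -0.06 ± 0.167 (adjusted p = 0.836), Mcm7 at 0.16 ± 0.167 (adjusted p = 0.532) and Mcm2 at 0.32 ± 0.172 (adjusted p = 0.235). Scaling by library size alone turned the sign of Mcm4 in this comparison to 0.11. Differences among subunits were not tested against each other.

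**Figure D4:**
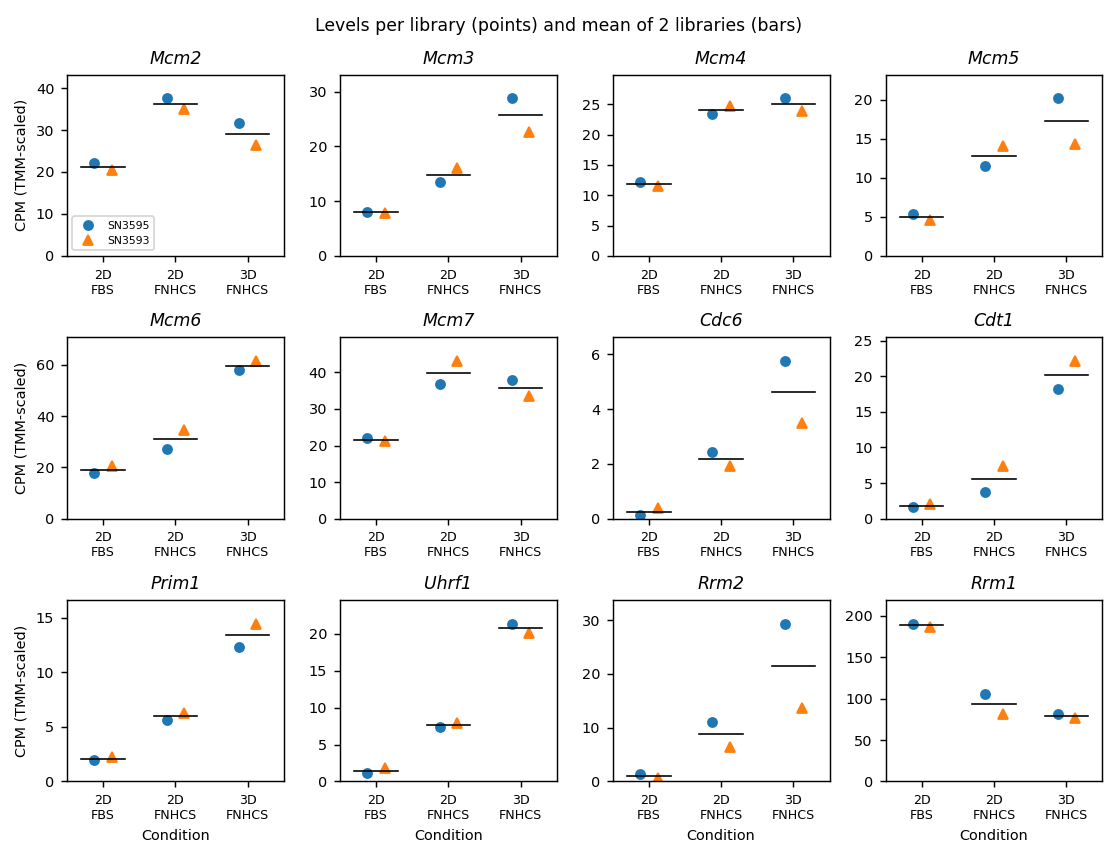
CPM of 12 members in each library on linear axes that start at 0, with a circle for SN3595, a triangle for SN3593 and a bar at the mean of the 2 libraries, for 2D FBS, 2D FNHCS and 3D FNHCS. Rrm1 is highest in 2D FBS, at 190.3 and 186 CPM, while Rrm2 is lowest there, at 1.39 and 0.632 CPM.

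Of the 5 members that turn the loaded helicase on, 2 fell in 2D FBS. Mcm10, which joins the active helicase at the fork, had 0.203 and 0.144 CPM in 2D FBS, 1.31 and 1.40 CPM in 2D FNHCS, and 4.17 and 3.02 CPM in 3D FNHCS. It rested on 8 and 5 expected counts in 2D FBS, and its libraries did not overlap between any conditions. The log2 fold change in 2D FBS was -4.34 ± 0.483 (adjusted p = 0.00188) against 3D FNHCS and -2.94 ± 0.469 (adjusted p = 0.0199) against 2D FNHCS. For 2D FNHCS against 3D FNHCS it was -1.41 ± 0.408 (adjusted p = 0.0601), with an adjusted p of 0.0407 with the line as a block. Gins1, a subunit of the GINS complex, had 0.127 and 0.230 CPM in 2D FBS, 1.41 and 0.984 CPM in 2D FNHCS, and 1.59 and 1.53 CPM in 3D FNHCS. The drop in Gins1 lay between the flat cultures, with log2 fold changes of -2.74 ± 0.544 (adjusted p = 0.0324) in 2D FBS against 2D FNHCS and -3.11 ± 0.547 (adjusted p = 0.00693) against 3D FNHCS, on 5 and 8 expected counts in 2D FBS.

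The other GINS subunits were not called without the block. Gins2 had 4.68 and 3.94 CPM in 2D FBS, 4.51 and 4.66 CPM in 2D FNHCS, and 9.30 and 6.48 CPM in 3D FNHCS. The flat cultures overlapped for Gins2 and lay below 3D FNHCS, with a log2 fold change of -0.87 ± 0.299 (adjusted p = 0.0597) in 2D FBS against 3D FNHCS and an adjusted p of 0.0407 with the line as a block. Gins4 had 23.2 and 23.04 CPM in 2D FBS, 25.2 and 28.8 CPM in 2D FNHCS, and 22.5 and 26.5 CPM in 3D FNHCS, which overlapped between 2D FBS and 3D FNHCS. Gins3 had 2.15 and 2.93 CPM in 2D FBS, 1.69 and 2.64 CPM in 2D FNHCS, and 3.26 and 2.99 CPM in 3D FNHCS. Neither Gins3 nor Gins4 was called in any comparison, with adjusted p-values of 0.574 and 0.731 in 2D FBS against 3D FNHCS. The 4 proteins work as a single complex in which each subunit is needed.

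None of the 4 genes that drive entry into S phase was called in any comparison by edgeR, and their medians were -0.37 in 2D FBS against 3D FNHCS, -0.15 in 2D FBS against 2D FNHCS and 0.01 in 2D FNHCS against 3D FNHCS. E2f1, an activating transcription factor of replication genes, had 28.9 and 14.7 CPM in 2D FBS, 25.1 and 12.01 CPM in 2D FNHCS, and 25.1 and 16.4 CPM in 3D FNHCS. The 3 conditions overlapped, and the lines did not. E2f2, a close relative, had 6.30 and 2.73 CPM in 2D FBS, 13.8 and 4.38 CPM in 2D FNHCS, and 11.2 and 4.78 CPM in 3D FNHCS. It too was higher in SN3595 in every condition, and with the line as a block its adjusted p in 2D FBS against 3D FNHCS was 0.0366, beside 0.394 without it. Ccne1, a cyclin that activates Cdk2 at the start of S phase, had 4.73 and 8.51 CPM in 2D FBS, 6.20 and 7.04 CPM in 2D FNHCS, and 5.42 and 2.79 CPM in 3D FNHCS. Ccne2, the other E-type cyclin, had 1.39 and 1.47 CPM in 2D FBS, 2.44 and 1.06 CPM in 2D FNHCS, and 2.92 and 2.82 CPM in 3D FNHCS. For Ccne1 the libraries of 2D FBS overlapped those of both other conditions. For Ccne2 they lay below those of 3D FNHCS, with a log2 fold change of -1.01 ± 0.486 (adjusted p = 0.146).

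Of the 6 polymerase and primase genes, 4 fell in 2D FBS against 3D FNHCS, with a median of -1.66. Prim1, the catalytic primase subunit that lays down RNA primers, had 1.92 and 2.24 CPM in 2D FBS, 5.68 and 6.27 CPM in 2D FNHCS, and 12.3 and 14.5 CPM in 3D FNHCS. The conditions stood apart in a graded order, with log2 fold changes of -2.68 ± 0.265 (adjusted p = 0.00150) in 2D FBS against 3D FNHCS, -1.52 ± 0.257 (adjusted p = 0.0229) in 2D FBS against 2D FNHCS and -1.16 ± 0.249 (adjusted p = 0.0273) in 2D FNHCS against 3D FNHCS. Its partner Prim2, the large primase subunit, had 5.55 and 4.88 CPM in 2D FBS, 5.63 and 6.29 CPM in 2D FNHCS, and 7.09 and 6.88 CPM in 3D FNHCS. Prim2 was also lowest in 2D FBS but spanned a narrow range and was not called, at -0.42 ± 0.251 (adjusted p = 0.225) in 2D FBS against 3D FNHCS.

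Pola1, the catalytic subunit of polymerase alpha, which extends the primers, had 1.47 and 1.52 CPM in 2D FBS, 3.19 and 3.75 CPM in 2D FNHCS, and 5.76 and 6.05 CPM in 3D FNHCS. It fell in 2D FBS against 3D FNHCS, at -1.98 ± 0.308 (adjusted p = 0.00475), and against 2D FNHCS its adjusted p was 0.0565, or 0.0401 with the line as a block. Pola2, the accessory subunit of polymerase alpha, had 15.4 and 22.7 CPM in 2D FBS, 22.2 and 21.1 CPM in 2D FNHCS, and 51.8 and 116 CPM in 3D FNHCS. The flat cultures overlapped for Pola2, and the 2 libraries of 3D FNHCS were far apart while both higher than the rest. Its log2 fold change was -2.14 ± 0.405 (adjusted p = 0.00891) in 2D FBS and -1.96 ± 0.402 (adjusted p = 0.0244) in 2D FNHCS against 3D FNHCS, and the adjusted p rose to 0.0573 and 0.0809 under the least favourable alternative. Pold1, the catalytic subunit of polymerase delta for the lagging strand, had 17.98 and 13.2 CPM in 2D FBS, 22.9 and 18.8 CPM in 2D FNHCS, and 41.9 and 37.6 CPM in 3D FNHCS. Both flat cultures were below 3D FNHCS, at -1.35 ± 0.221 (adjusted p = 0.00552) for 2D FBS and -0.93 ± 0.219 (adjusted p = 0.0352) for 2D FNHCS.

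Pole, the catalytic subunit of polymerase epsilon for the leading strand, had 1.32 and 6.92 CPM in 2D FBS, 2.65 and 1.94 CPM in 2D FNHCS, and 3.72 and 1.93 CPM in 3D FNHCS. The SN3593 library of 2D FBS was the highest of the 6 and the SN3595 library of the same condition the lowest, and no comparison of conditions was called. The adjusted p was 0.608 in 2D FBS against 3D FNHCS.

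Of the 7 members that form the clamp and its loader or join Okazaki fragments, 6 fell in 2D FBS against 3D FNHCS, with a median log2 fold change of -1.60. Pcna, the sliding clamp, had 44.7 and 48.3 CPM in 2D FBS, 59.96 and 75.5 CPM in 2D FNHCS, and 70.4 and 79.9 CPM in 3D FNHCS. It was lower in 2D FBS than in all other libraries, at -0.69 ± 0.181 (adjusted p = 0.0254) against 3D FNHCS, while 2D FNHCS and 3D FNHCS overlapped. Against 2D FNHCS its adjusted p was 0.109, or 0.0472 with the line as a block. The values of Pcna are uncertain because the mouse genome holds annotated copies of it, and those of Tyms for the same reason.

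The loader is a ring of RFC subunits that opens the clamp around DNA. Rfc3 had 4.56 and 5.72 CPM in 2D FBS, 12.4 and 13.1 CPM in 2D FNHCS, and 15.3 and 17.4 CPM in 3D FNHCS. Its step lay between the flat cultures, at -1.31 ± 0.227 (adjusted p = 0.0239) in 2D FBS against 2D FNHCS. Rfc4 had 6.84 and 6.24 CPM in 2D FBS, 7.58 and 8.65 CPM in 2D FNHCS, and 18.8 and 20.8 CPM in 3D FNHCS. Its step lay between 2D FNHCS and 3D FNHCS, at -1.29 ± 0.212 (adjusted p = 0.0143). Rfc5 had 10.96 and 8.48 CPM in 2D FBS, 19.5 and 17.4 CPM in 2D FNHCS, and 37.7 and 25.7 CPM in 3D FNHCS. Its conditions stood apart in a graded order, with adjusted p-values of 0.0710 and 0.0807 for 2D FBS against 2D FNHCS and 2D FNHCS against 3D FNHCS, or 0.0231 and 0.0262 with the line as a block. The log2 fold changes in 2D FBS against 3D FNHCS were -1.67 ± 0.229 (adjusted p = 0.00321) for Rfc3, -1.60 ± 0.214 (adjusted p = 0.00302) for Rfc4, -1.70 ± 0.260 (adjusted p = 0.00439) for Rfc5 and -0.62 ± 0.195 (adjusted p = 0.0465) for Rfc2. Rfc2 had 25.5 and 24.1 CPM in 2D FBS, 29.6 and 32.3 CPM in 2D FNHCS, and 43.8 and 32.4 CPM in 3D FNHCS, and its flat cultures did not overlap.

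Lig1, the ligase that seals Okazaki fragments, had 3.85 and 3.71 CPM in 2D FBS, 9.48 and 8.05 CPM in 2D FNHCS, and 13.2 and 10.3 CPM in 3D FNHCS. It fell in 2D FBS against 3D FNHCS, at -1.63 ± 0.257 (adjusted p = 0.00490), and against 2D FNHCS, at -1.21 ± 0.255 (adjusted p = 0.0370). Fen1, the nuclease that removes the flap before sealing, had 17.02 and 15.7 CPM in 2D FBS, 23.3 and 26.3 CPM in 2D FNHCS, and 23.5 and 17.97 CPM in 3D FNHCS. Fen1 was lower in 2D FBS than in every other library but was not called, at -0.34 ± 0.203 (adjusted p = 0.225) against 3D FNHCS and -0.60 ± 0.203 (adjusted p = 0.114) against 2D FNHCS.

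The subunits of RPA, a trimer that coats single-stranded DNA, moved in opposite directions. Rpa1, the large subunit with most of the DNA-binding surface, had 39.6 and 39.1 CPM in 2D FBS, 40.4 and 41.99 CPM in 2D FNHCS, and 29.1 and 25.3 CPM in 3D FNHCS. It was higher in the flat cultures than in 3D FNHCS, at 0.53 ± 0.155 (adjusted p = 0.0358) for 2D FBS and 0.60 ± 0.155 (adjusted p = 0.0453) for 2D FNHCS. Rpa2, the subunit phosphorylated during replication stress, had 9.44 and 8.25 CPM in 2D FBS, 12.1 and 11.9 CPM in 2D FNHCS, and 19.8 and 22.2 CPM in 3D FNHCS. Rpa3, the small subunit, had 11.01 and 14.2 CPM in 2D FBS, 10.2 and 9.79 CPM in 2D FNHCS, and 21.8 and 19.4 CPM in 3D FNHCS. Both were lower in the flat cultures. The log2 fold changes of Rpa2 were -1.25 ± 0.198 (adjusted p = 0.00508) for 2D FBS and -0.80 ± 0.196 (adjusted p = 0.0391) for 2D FNHCS, and those of Rpa3 were -0.71 ± 0.214 (adjusted p = 0.0407) for 2D FBS and -1.05 ± 0.216 (adjusted p = 0.0246) for 2D FNHCS. The rise of Rpa1 in 2D FBS missed the threshold when any single library was left out, with adjusted p-values up to 0.182, with library-size or upper-quartile scaling, and without the low-count filter.

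The enzymes that make deoxynucleotides held both the deepest fall and the largest rise of the members in 2D FBS against 3D FNHCS. Ribonucleotide reductase is built from the large subunit Rrm1, which is present through the cell cycle, and the small subunit Rrm2, whose protein is made in S phase. Rrm1 had 190.3 and 186 CPM in 2D FBS, 105 and 81.8 CPM in 2D FNHCS, and 80.8 and 76.5 CPM in 3D FNHCS. Rrm2 had 1.39 and 0.632 CPM in 2D FBS, 11.03 and 6.47 CPM in 2D FNHCS, and 29.3 and 13.6 CPM in 3D FNHCS. Its values in 2D FBS rested on 54.6 and 22 expected counts. Rrm1 was highest and Rrm2 lowest in 2D FBS, in both lines and without overlap with any other condition. The log2 fold change in 2D FBS against 3D FNHCS was 1.26 ± 0.187 (adjusted p = 0.00408) for Rrm1 and -4.39 ± 0.601 (adjusted p = 0.00319) for Rrm2. Against 2D FNHCS, 2D FBS was at 1.01 ± 0.186 (adjusted p = 0.0271) for Rrm1 and -3.10 ± 0.575 (adjusted p = 0.0274) for Rrm2. In 2D FNHCS against 3D FNHCS it was 0.25 ± 0.185 (adjusted p = 0.376) for Rrm1 and -1.29 ± 0.519 (adjusted p = 0.131) for Rrm2, where Rrm2 had an adjusted p of 0.0128 with the line as a block.

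Tk1, the thymidine salvage kinase of S phase cells, had 0.329 and 0.632 CPM in 2D FBS, 3.21 and 2.85 CPM in 2D FNHCS, and 12.5 and 6.34 CPM in 3D FNHCS. It fell in 2D FBS to 13.3 and 22 expected counts, at -4.29 ± 0.531 (adjusted p = 0.00248) against 3D FNHCS and -2.66 ± 0.507 (adjusted p = 0.0294) against 2D FNHCS. Tyms, which makes thymidylate anew, had 32.5 and 43.2 CPM in 2D FBS, 52.7 and 108 CPM in 2D FNHCS, and 48.4 and 53.9 CPM in 3D FNHCS. The SN3593 library of 2D FNHCS was the highest for Tyms, and 2D FNHCS overlapped 3D FNHCS. The adjusted p of Tyms in 2D FBS against 2D FNHCS was 0.102, or 0.0397 with the line as a block.

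All 3 genes that rebuild chromatin behind the fork fell in 2D FBS against 3D FNHCS. Uhrf1, which recruits the maintenance DNA methyltransferase to newly copied DNA, had 1.09 and 1.81 CPM in 2D FBS, 7.34 and 7.95 CPM in 2D FNHCS, and 21.4 and 20.2 CPM in 3D FNHCS. It had the lowest adjusted p of the 42 members in 2D FBS against 3D FNHCS and against 2D FNHCS, and its conditions stood apart throughout. The log2 fold changes were -3.84 ± 0.320 (adjusted p = 0.00107) in 2D FBS against 3D FNHCS, -2.40 ± 0.305 (adjusted p = 0.0125) in 2D FBS against 2D FNHCS and -1.44 ± 0.286 (adjusted p = 0.0225) in 2D FNHCS against 3D FNHCS. Chaf1b, a subunit of the histone chaperone CAF-1, had 1.72 and 2.61 CPM in 2D FBS, 8.92 and 13.00 CPM in 2D FNHCS, and 14.4 and 15.1 CPM in 3D FNHCS. Its step lay mostly between the flat cultures, at -2.34 ± 0.326 (adjusted p = 0.0153), and it was -2.77 ± 0.330 (adjusted p = 0.00227) in 2D FBS against 3D FNHCS. Chaf1a, the large subunit of CAF-1, had 3.98 and 5.06 CPM in 2D FBS, 7.58 and 8.62 CPM in 2D FNHCS, and 16.02 and 9.85 CPM in 3D FNHCS. It fell in 2D FBS against 3D FNHCS, at -1.52 ± 0.320 (adjusted p = 0.0125).

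Some members share transcribed sequence with a neighbour. Exons of 9 members, Orc6, Mcm7, Gins2, Ccne2, Rfc2, Rfc4, Rfc5, Tk1 and Chaf1a, overlap exons of another gene of the table on the opposite strand, and the sources used here do not say whether counting used strand. The longest shared stretch was between 83 and 2758 bases per member. If strand was not used, reads within those stretches cannot be assigned to either gene. Of the 33 members without such overlap, 21 fell and 2 rose in 2D FBS against 3D FNHCS. The shares of all tested genes were 20.5% and 19.9%. In 2D FBS against 2D FNHCS 12 fell and 1 rose, beside 4.77% and 5.85%. In 2D FNHCS against 3D FNHCS 10 fell and 1 rose, beside 9.77% and 8.63%. These 33 include Fen1, Lig1, Pole and Rpa1, whose exons overlap those of genes not found in the table by current symbol. Older symbols of these neighbours were not searched.

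No member was called in SN3595 against SN3593 by edgeR, where 0.00694% of all tested genes were called, 6 of 42 members had an unadjusted p under 0.05, beside 2678 of 14416 tested genes, and the members' median log2 fold change was 0.04. DESeq2 called 758 of 21702 genes, some of which got no adjusted p, and among them 3 of the 42 members, E2f1, E2f2 and Rrm2. The limma-voom fit called 1 gene and 0 members. The libraries of the lines did not overlap for E2f1 and E2f2, both higher in SN3595, where 3.63% of all tested genes were so, with log2 fold changes of 0.88 ± 0.143 (adjusted p = 0.136) for E2f1 and 1.36 ± 0.194 (adjusted p = 0.126) for E2f2. Pooled over the members, the summed level was 627 CPM in SN3595 and 631 CPM in SN3593 for 2D FBS, 740 and 791 CPM for 2D FNHCS, and 984 and 957 CPM for 3D FNHCS.

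Other genes of DNA replication, outside the 42 members, are read beside the same 20.5% of all tested genes that fell in 2D FBS against 3D FNHCS and 19.9% that rose. Of 22 further elongation genes, 14 (63.6%) fell and 0 rose by edgeR, with a median log2 fold change of -1.03. Timeless, of the fork protection complex, was at -3.04 ± 0.326 (adjusted p = 0.00173), the nuclease Exo1 at -4.05 ± 0.490 (adjusted p = 0.00237) and the polymerase epsilon subunit Pole2 at -3.23 ± 0.411 (adjusted p = 0.00267). Of 11 further chromatin genes 7 (63.6%) fell and 0 rose, among them Cdca7, which works with the remodeller Hells, at -4.79 ± 0.492 (adjusted p = 0.00163). Of 11 further nucleotide enzymes 4 (36.4%) fell and 1 rose, among them the dUTPase gene Dut, at -1.53 ± 0.177 (adjusted p = 0.00211). Of 18 further licensing and firing genes, 4 (22.2%) fell and 2 rose, with a median of -0.38, a share near that of all tested genes.

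The kinase gene Cdc7, whose product fires origins by phosphorylating the helicase, was 1 of the 2 further licensing and firing genes that rose. Cdc7 had 22.03 and 20.5 CPM in 2D FBS, 5.44 and 3.86 CPM in 2D FNHCS, and 10.5 and 8.35 CPM in 3D FNHCS. Its highest level was in 2D FBS, where most members were lowest, with log2 fold changes of 1.17 ± 0.259 (adjusted p = 0.0145) in 2D FBS against 3D FNHCS, 2.19 ± 0.267 (adjusted p = 0.0120) in 2D FBS against 2D FNHCS and -1.02 ± 0.261 (adjusted p = 0.0445) in 2D FNHCS against 3D FNHCS. By contrast Ticrr, which helps to load Cdc45 and is listed under an older name in the table, had a log2 fold change of -3.90 ± 0.582 (adjusted p = 0.00413) in 2D FBS against 3D FNHCS.

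Mitosis genes, which act after replication, fell in the same cultures. Of 30 mitosis genes, 27 (90%) fell and 0 rose in 2D FBS against 3D FNHCS, beside 20.5% of all tested genes that fell. In 2D FBS against 2D FNHCS 22 (73.3%) fell, beside 4.77%, and in 2D FNHCS against 3D FNHCS 11 (36.7%), beside 9.77%. The medians of the mitosis genes were -4.36, -2.63 and -1.62. With the line as a block, 17 of them fell in 2D FNHCS against 3D FNHCS, beside 14.8% of all tested genes. The summed level of the mitosis genes was 94.7 and 99.2 CPM in 2D FBS, 223 and 196 CPM in 2D FNHCS, and 760 and 412 CPM in 3D FNHCS. The proliferation marker Mki67 had 0.988 and 0.718 CPM in 2D FBS, 4.69 and 3.29 CPM in 2D FNHCS, and 17.2 and 7.20 CPM in 3D FNHCS. Top2a, the topoisomerase that separates sister chromatids, had 0.557 and 0.661 CPM in 2D FBS, 9.46 and 7.77 CPM in 2D FNHCS, and 42.1 and 19.9 CPM in 3D FNHCS. The difference between the median of the members and that of the mitosis genes was not tested.

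A list of 31 genes held E2F and retinoblastoma family members, cyclins, cyclin-dependent kinases and other cell cycle regulators. Of these 31, 13 (41.9%) fell and 5 (16.1%) rose in 2D FBS against 3D FNHCS, beside 20.5% and 19.9% of all tested genes. In 2D FBS against 2D FNHCS 7 (22.6%) fell and 0 rose, beside 4.77% and 5.85%. The 4 (12.9%) that fell and 3 (9.68%) that rose in 2D FNHCS against 3D FNHCS were near the 9.77% and 8.63% of all tested genes. Ccna2, the cyclin of S phase and G2, was at -5.48 ± 0.688 (adjusted p = 0.00259) in 2D FBS against 3D FNHCS, and Tfdp2, a partner of E2F proteins, was at 2.30 ± 0.322 (adjusted p = 0.00343). For 2D FBS against 2D FNHCS the kinase Cdk4 was at -1.03 ± 0.173 (adjusted p = 0.0225) and its partner cyclin Ccnd1 at -1.49 ± 0.250 (adjusted p = 0.0225). Ccnd2, another D-type cyclin, had 96.1 and 70.1 CPM in 2D FBS, 142 and 348 CPM in 2D FNHCS, and 9.64 and 2.42 CPM in 3D FNHCS. It was at 5.34 ± 0.802 (adjusted p = 0.0112) in 2D FNHCS against 3D FNHCS, the direction opposite to that of most members. Cdkn1a, the inhibitor p21 of cyclin-dependent kinases, had 1106 and 1449 CPM in 2D FBS, 738 and 1100 CPM in 2D FNHCS, and 474 and 733 CPM in 3D FNHCS, with a log2 fold change of 1.08 ± 0.336 (adjusted p = 0.0441) in 2D FBS against 3D FNHCS. The other inhibitors of the list differed in direction. Mean CPM in 2D FBS and 3D FNHCS was 12.4 and 27.7 for Cdkn1b and 4.30 and 8.76 for Cdkn1c. Cdkn2c, at 1.19 and 5.79, and Cdkn2d, at 7.37 and 16.3, were also lower in 2D FBS. Higher there were Cdkn2b, at 337 and 82.8, and Cdkn2a, at 2.99 and 2.62.

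**Figure D5:**
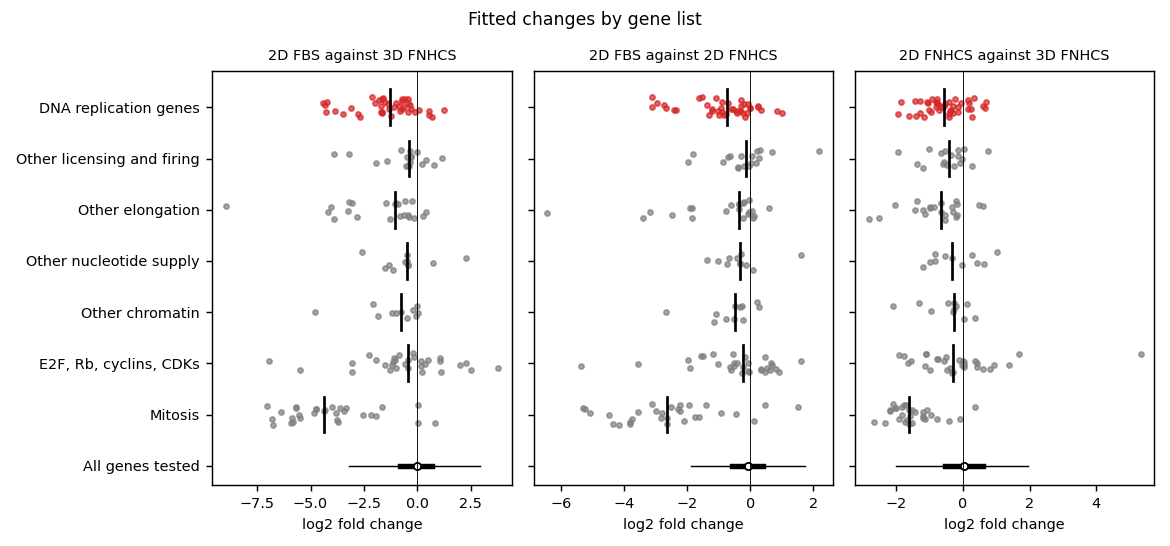
Log2 fold changes of the members and of the other gene lists in the 3 comparisons, with a point for each gene and a bar at each list's median, and for all tested genes a circle at the median, a thick line over the 25th to 75th percentiles and a thin line over the 5th to 95th. The mitosis list has medians of -4.36, -2.63 and -1.62, and the members as a whole have medians of -1.28, -0.73 and -0.56.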

How the data were processed

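PolyA RNA-seq libraries of alveolar organoid cells were compared, 2 per condition. The authors deposited expected counts per gene, and per the submitters' processing notes RSEM 1.3.1 and Bowtie 1.2.3 were used with build mm9. The sources used here do not state the annotation or the strand setting. Expected counts were rounded and tested with edgeR 4.0.16 in R 4.3.3 by quasi-likelihood, with TMM scaling and the default low-count filter, which kept 14416 genes and left out 8808. All 6 libraries entered 1 fit with a term per condition, leaving 3 residual degrees of freedom, and p-values were adjusted by Benjamini-Hochberg over all genes tested. Standard errors (SE) were computed as |log2 fold change| over the root of the F statistic. The lines were compared with condition as a further term. Per-line differences use log2(CPM + 0.5).

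The same 2 lines were used in each condition, so replicate numbers pair the libraries by line. Deviations from condition means correlated at 0.383 between 2D FBS and 2D FNHCS, 0.247 between 2D FBS and 3D FNHCS and 0.420 between 2D FNHCS and 3D FNHCS. The line as a block was an alternative, as were RLE, upper-quartile and library-size scaling, no filter, DESeq2 1.42.0, limma-voom (limma 3.58.1) and leaving out each library. Leaving out members that share exons with another gene of the table was added after seeing the data. Libraries of a condition differed by a chi-square of 105 to 129 per degree of freedom, and all were kept. The script was tested on simulated data.

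The members and gene lists were chosen with earlier results of these data known. By rule, full statistics went to the 10 members with the lowest adjusted p, to Mcm2 to Mcm7 and to the largest change each way. Some other members, such as Prim2 and Fen1, were given them as well. Of each other list up to 3 genes with the lowest adjusted p per comparison were named. Mki67, Top2a and Cdkn1a were named as context, and the other inhibitors of cyclin-dependent kinases were named beside Cdkn1a. Promoter windows are RefSeq sequences (GRCm38.p6), matched by symbol. Ticrr and Supt16 were matched by an older symbol. Library depth, 33634368 to 43334665 expected counts, sets the precision of genes with few counts.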

Additional observations from a re-analysis of the deposited data

Results flagged for a closer look

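Pole moved in opposite directions in the lines. On the log2(CPM + 0.5) scale the difference of 2D FBS against 2D FNHCS was -0.79 in SN3595 and 1.60 in SN3593, and that of 2D FBS against 3D FNHCS was -1.21 in SN3595 and 1.61 in SN3593. The difference between the lines was not tested, because an interaction of line and condition leaves no residual degrees of freedom. The SN3593 library of 2D FBS held 241 expected counts of Pole and the SN3595 library 52.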

How the results depend on the processing

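The direction of the members' median held in all 3 comparisons of conditions under all 13 alternatives. Scaling and tool moved its size. For 2D FBS against 2D FNHCS it was -0.73 with TMM, -0.71 with RLE factors, -1.01 with library size alone, -0.87 with upper-quartile factors and -0.68 with DESeq2, and in 2D FBS against 3D FNHCS it was -1.44 with upper-quartile factors. In 2D FNHCS against 3D FNHCS it was -0.39 with library size alone, where 9 members were called. DESeq2 also changes the test and the filter. These scalings move the median of all tested genes too, by library size to -0.33 in 2D FBS against 2D FNHCS, -0.14 in 2D FBS against 3D FNHCS and 0.19 in 2D FNHCS against 3D FNHCS. With upper-quartile factors that median was -0.19 in both comparisons of 2D FBS. With each library left out in turn, the members' median ranged from -0.73 to -0.65 in 2D FBS against 2D FNHCS, from -1.36 to -1.11 in 2D FBS against 3D FNHCS, and from -0.68 to -0.47 in 2D FNHCS against 3D FNHCS. The number of called members then ranged from 0 to 11, from 21 to 26 and from 0 to 8, against 15, 30 and 12 with all libraries, while all called genes ranged from 62 to 1292, from 3281 to 6000 and from 565 to 1869. Such fits leave a condition with 1 library, which is assumed to vary like the others, and they have fewer residual degrees of freedom. With the line as a replicate block, 22, 33 and 16 members were called, and apart from the members named with their blocked values the block changed no call of a member. The line comparison had 0 called members, and 3 with DESeq2, which called 758 genes there. The cause of these differences was not tested.

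Some members that were not called switched sign. In 2D FNHCS against 3D FNHCS with library size alone, Mcm4 was at 0.11 and Pcna at 0.01. For 2D FBS against 2D FNHCS, Orc6 was at 0.01 with RLE factors and 0.03 with DESeq2, Ccne1 at 0.03 with RLE factors, 0.01 without the filter and 0.05 with DESeq2, and with library size alone Gins3 was at -0.06 and E2f1 at -0.03. For 2D FBS against 3D FNHCS, E2f1 was at -0.04 with library size alone and -0.10 with upper-quartile factors. With a library left out, the range in 2D FBS against 2D FNHCS was -0.48 to 0.38 for Ccne1, -0.77 to 0.43 for Ccne2, -0.32 to 0.86 for E2f1, -1.72 to 0.05 for E2f2, -0.21 to 0.03 for Gins2, -0.06 to 0.59 for Gins3, -0.09 to 0.08 for Orc6, -0.49 to 0.08 for Pola2 and -0.80 to 1.60 for Pole. It was, in 2D FBS against 3D FNHCS, -0.50 to 0.47 for E2f1, -0.20 to 0.04 for Gins4 and -1.10 to 1.29 for Pole. It was, in 2D FNHCS against 3D FNHCS, -0.79 to 0.27 for E2f1, -0.87 to 0.92 for E2f2, -0.11 to 0.01 for Mcm4, -0.33 to 0.01 for Pcna and -0.69 to 0.25 for Pole. Depth limits Cdc6, Mcm10, Gins1 and Tk1 in 2D FBS, where each library held 5 and 13, 8 and 5, 5 and 8 and 13.3 and 22 expected counts. Rrm2 had 54.6 and 22 expected counts there.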
